A study of Mus musculus with 11 samples.

Results

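The genes described here are the protein-coding genes of mouse chromosome 4 that were listed in the study's table of genes differing between Cpt1a-deficient and control ErbB2-driven mammary tumor cells. They were chosen by the gene type and chromosome columns of that table and ordered by start position, and genes named Slc2a1, Lao1 or with a name starting with Zfp were left out. Of 331 listed coding genes of the chromosome, 5 were excluded by name, leaving 326 members of 4461 listed genes. The first member is Rps20 and the last is Noc2l. In the mm10 annotation the members lie within chr4:3831334-156247616, with 157 on the plus and 169 on the minus strand.

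RNA-Seq was performed on 6 lines of tumor cells. The NIC/Cpt1a L/L genotype had 4 lines, named KO_1922, KO_1925, KO_2768 and KO_4258, and the control genotype NIC/Cpt1a+/+ had the 2 lines WT_5257 and WT_8905. Every line came from a mammary tumor of an untreated female FVB/N mouse, taken 8 weeks after the tumor was first felt, and grown in culture. All mice carried the MMTV-NIC transgene, in which the MMTV promoter drives activated ErbB2 together with Cre recombinase in the mammary epithelium, so that the controls carry the oncogene and Cre as well. In L/L mice the same Cre deletes the conditional alleles of Cpt1a, the enzyme that starts the import of long-chain fatty acids into mitochondria. Duplicate libraries were used for 5 lines and 1 library for KO_2768, and the line was the replicate. Lines were assigned to genotypes by the genotype field, since the titles of the samples describe the alleles the other way round. Cpt1a is not among the 4461 listed genes, which are only those that the study called between these genotypes. Its RNA was thus not listed as differing, and its level could not be checked against these labels. The paper reports that its cells were authenticated by PCR genotyping and by immunoblots for Cpt1a.

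Chromosome 4 carries genes of many roles in the mouse. It holds the acute-phase Orm genes, the connexin gene Gjb5, the peptidylarginine deiminases Padi1 to Padi4, several ribosomal protein genes, and Cpt2, whose enzyme acts after Cpt1a on the inner mitochondrial membrane. Fatty acid oxidation shortens acyl chains in the mitochondrion and feeds reducing equivalents to the respiratory chain. ErbB2 is a receptor tyrosine kinase whose excess activity drives a class of breast cancers.

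Library totals ranged from 15199378 to 17372643 reads in control libraries and from 18247312 to 25386785 in L/L libraries, so depth and genotype cannot be told apart. Levels are given as CPM, the read count scaled to the library total and by TMM factors, for duplicate libraries summed by line. TMM factors, and DESeq2's size factors where used, were computed on listed genes only, all of them called between genotypes. Both methods assume that most genes do not differ, so small fold changes depend on this scaling. A count of 3, used as the floor, equals on average 0.183 CPM in control lines and 0.141 CPM in L/L lines, and covers counting error only. The libraries are labelled mammary epithelium. Of 14 fixed epithelial markers only Elf5 and Muc1 are listed, and their summed CPM was 299 and 326 in the control lines against 18.3 to 146 in the L/L lines. Almost all of this sum was Elf5. Muc1 had 2.21 CPM in KO_2768, between the 1.74 and 10.2 CPM of the control lines. Only genes that the study called between genotypes are listed, so the levels of the other markers are not known here. Of 8 fibroblast markers 4 are listed, and their sum reached 1393 CPM in KO_2768, almost all of it Dcn, against at most 7.77 in any other line. Of 8 blood cell markers only Csf1r is listed, at 312 CPM in KO_4258 and at most 17.2 in any other line. No endothelial marker is listed. In such bulk samples, fewer cells of a type and less RNA per cell cannot be told apart. The part of these differences in the results for the members was not tested, and the main genotype counts are also given without KO_4258 and without KO_2768.

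Promoter sequences of 6 members are shown because the results return to them: Orm3 and Orm2, tandem neighbors with higher levels in every L/L line, Gjb5, a connexin gene listed at 0 in both control lines, Slc25a34 and Tspan1, which were lower in every L/L line, and Cpt2. Each is the 250 bases before the RefSeq start (build GRCm38.p6), written 5′ to 3′ on the gene's strand. Capitals mark matches on either strand to the TATA box letters TATAAA, the CCAAT box or the motif TGACNNNGC, and Cpt2 has none. Orm3 and Orm2 hold TATAAA on the strand of the gene. Gjb5 holds these letters on the opposite strand, 243 bases before the start, and also a CCAAT box. Slc25a34 holds a CCAAT box on the opposite strand, and Tspan1 holds TGACNNNGC. The windows are Orm3 at chr4:63355908-63356157 on the plus strand, Orm2 at chr4:63362199-63362448 on the plus strand, Gjb5 at chr4:127358165-127358414 on the minus strand, Slc25a34 at chr4:141623835-141624084 on the minus strand, Tspan1 at chr4:116167599-116167848 on the minus strand and Cpt2 at chr4:107923590-107923839 on the minus strand.
Orm3: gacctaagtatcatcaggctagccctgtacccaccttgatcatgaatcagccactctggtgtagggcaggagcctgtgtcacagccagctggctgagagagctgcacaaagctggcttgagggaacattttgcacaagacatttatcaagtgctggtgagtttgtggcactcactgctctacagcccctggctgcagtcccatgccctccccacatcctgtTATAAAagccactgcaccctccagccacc
Orm2: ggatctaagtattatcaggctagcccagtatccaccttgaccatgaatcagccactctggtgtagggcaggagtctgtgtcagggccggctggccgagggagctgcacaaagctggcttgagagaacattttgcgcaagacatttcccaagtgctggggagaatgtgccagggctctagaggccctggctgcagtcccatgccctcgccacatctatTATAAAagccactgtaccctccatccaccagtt
Gjb5: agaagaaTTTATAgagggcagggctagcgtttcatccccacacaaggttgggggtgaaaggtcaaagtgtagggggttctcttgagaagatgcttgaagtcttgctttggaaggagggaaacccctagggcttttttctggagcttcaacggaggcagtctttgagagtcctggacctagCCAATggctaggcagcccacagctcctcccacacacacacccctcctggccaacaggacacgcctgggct
Slc25a34: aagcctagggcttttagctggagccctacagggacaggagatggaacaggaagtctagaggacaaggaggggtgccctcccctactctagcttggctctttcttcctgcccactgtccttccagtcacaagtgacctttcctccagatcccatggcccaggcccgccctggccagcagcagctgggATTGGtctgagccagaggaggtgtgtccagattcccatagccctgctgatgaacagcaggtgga
Tspan1: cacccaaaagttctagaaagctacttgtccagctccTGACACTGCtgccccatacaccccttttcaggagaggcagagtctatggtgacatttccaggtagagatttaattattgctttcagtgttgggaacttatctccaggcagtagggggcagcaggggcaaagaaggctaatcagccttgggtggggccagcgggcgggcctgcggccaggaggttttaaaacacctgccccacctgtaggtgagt
Cpt2: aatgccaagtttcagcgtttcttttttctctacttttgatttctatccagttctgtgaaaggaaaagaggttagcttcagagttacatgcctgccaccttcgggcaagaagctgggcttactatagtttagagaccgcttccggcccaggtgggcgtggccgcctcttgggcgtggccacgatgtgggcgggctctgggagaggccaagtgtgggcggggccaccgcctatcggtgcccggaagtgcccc

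Because every member was selected on the difference between genotypes, the L/L against control values are a description and carry no test. Of 326 members, 320 passed the filter on low counts and were fitted. Of these, 275 (85.9%) had a fitted log2 fold change above 0, against 58.6% of the 4268 listed genes fitted. Without KO_4258 the number was 273 and without KO_2768 it was 271. The median log2 fold change of the fitted members was 0.66, with quartiles at 0.38 and 1.33, and the median over all listed genes was 0.49. Among the 3524 coding genes fitted on the other chromosomes, under the same name exclusions, 56.1% were above 0, the median was 0.43 and the quartiles lay at -0.85 and 1.93. The members were thus more often on the higher side and lay closer together than the other listed coding genes, and the difference between chromosomes was not tested. The range between quartiles was 0.95 for the members and 2.78 for the rest. A log2 fold change between 0.4 and 1, limits chosen after the values were seen, was found for 134 fitted members (41.9%) and for 15.6% of the other coding genes. With DESeq2's size factors 85.9% of the fitted members were again above 0 and the median of the members was 0.53, while the median of all listed genes was 0.37. With the size factors behind the deposited normalized values these medians were 0.77 and 0.59.

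**Figure D1:**
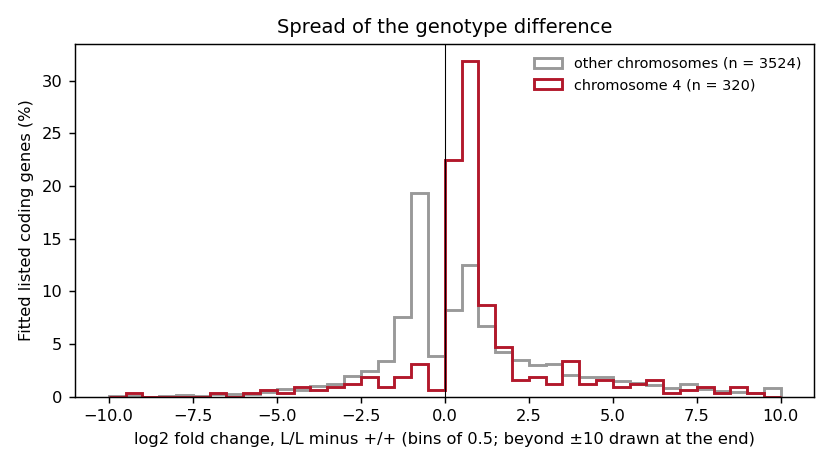
Share of fitted listed coding genes (percent) by log2 fold change, L/L minus +/+, in bins of 0.5, for the 320 members on chromosome 4 and 3524 genes of other chromosomes. The members gather between 0 and 1, and few lie below 0.

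In 194 of 326 members all 4 L/L lines were above both control lines, against 35.3% of all listed genes, and in 37 all 4 were below, against 37.6%. The selection used this contrast, so nothing is read from these counts. Without KO_4258 the counts were 246 and 40, and without KO_2768 they were 189 and 43. With DESeq2's size factors 129 members had all 4 lines above, which is fewer by more than 1.5 times. Among the 275 members above 0, 193 had all 4 L/L lines above both controls and 77 had 3 of the 4. In those 77 the line that stayed behind was KO_4258 in 51, KO_2768 in 21, KO_1922 in 4 and KO_1925 in 1. Of the 275, 174 (63.3%) were at most 2-fold higher, and 58 had a log2 fold change over 2. The 45 members below 0 were spread more widely, their median being -2.19 on the log2 scale and 24 lying beyond -2. In 29 members no control library had more than 3 counts, and in 3 other members no L/L library did.

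**Figure D2:**
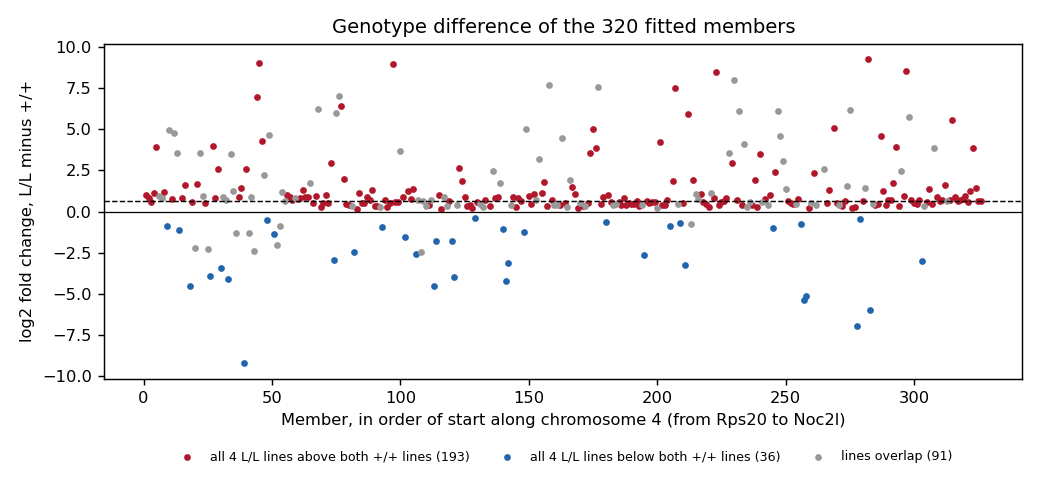
Log2 fold change, L/L minus +/+, of the 320 fitted members in their order along chromosome 4, with 0 (solid) and the median of 0.66 (dashed). Points are colored by whether the lines of the genotypes overlap; the members above 0 run along the whole chromosome, in a narrow band with scattered high values.

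Chromosome 4 ranked second of 20 chromosomes in the share of fitted coding genes above 0. Chromosome 17 had 88.6% of 176 genes above 0, chromosome 8 had 78.7% of 174 and chromosome 12 had 14.9% of 221. Chromosome 12 was the only one of the 20 with a narrower range between quartiles (0.66) than chromosome 4. The listed genes make up 24.9% of the coding genes annotated on chromosome 4, counted before the exclusions by name, and 35.6% of those on chromosome 12. On the other 18 chromosomes this share was between 10.4% and 22.6%. Over the members, the median of log2(CPM + 0.5) minus the mean of the control lines was 0.61 in KO_1922, 0.63 in KO_1925, 0.61 in KO_2768 and 0.40 in KO_4258. Thus 3 lines lay close together and KO_4258 was lower.

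Along the chromosome, the share of members above 0 was 64.7% or more in each 10-Mb bin with at least 10 fitted members. It was highest between 80 and 90 Mb, where all 12 members were above 0, among them the ribosomal protein gene Rps6 and the lipid droplet gene Plin2. Between 150 and 160 Mb 43 of 45 were above 0. Between 70 and 80 Mb the 3 members Tle1, Rasef and Tmem261 were all below 0, and each was called higher in WT_5257 than in WT_8905 by the test of line differences given below, which called 5.48% of all listed genes in that direction. Of the fitted members 85.9% were above 0, so that long runs and pairs of neighbors above 0 are common in any order. In their start order the fitted members formed 71 runs on one side of 0. The longest held 31 members each, from Mycl to Adc over 5.97 Mb and from Paqr7 to Iffo2 over 5.12 Mb. The longest runs below 0 held 3 members. Of 75 pairs of neighbors that overlapped or lay within 10 kb, both were above 0 in 65, both were below in 2 and they differed in 8. Close neighbors on opposite sides included Col27a1 and Orm1, 9569 bases apart, at -2.37 and 6.98 on the log2 scale. These pairs were not tested, and 121 members overlap an annotated gene on the opposite strand, whose reads cannot be told apart from theirs because the strand of the counting was not given.

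**Figure D3:**
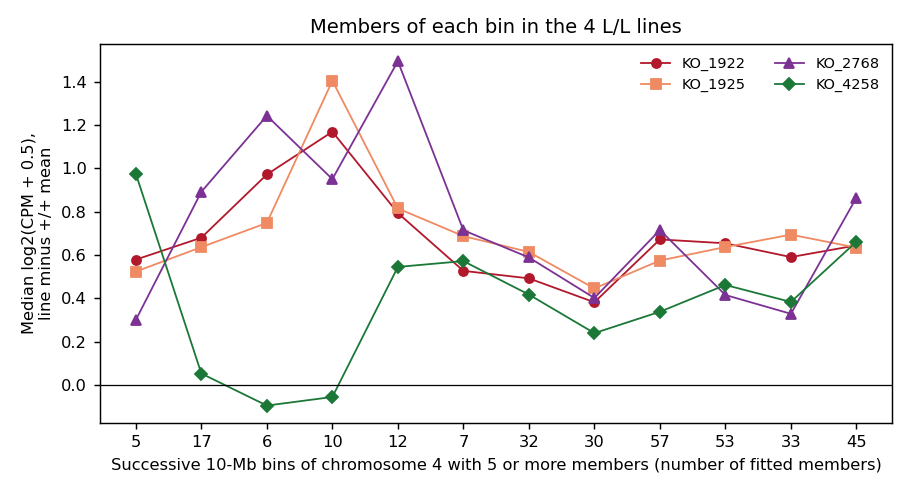
Median of log2(CPM + 0.5), line minus the mean of the +/+ lines, over the members of successive 10-Mb bins with 5 or more fitted members, for each of the 4 L/L lines. KO_2768 is highest in the bin of 12 members, and KO_4258 lies near 0 in the 3 bins of 17, 6 and 10 members.

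Among members above both controls in all L/L lines and with a mean of at least 1 CPM, the 5 highest by log2 fold change were Slc2a5, Orm3, Rab3b, Orm1 and Slc30a2. Slc2a5 (chr4:150119283-150144169, plus strand) encodes the fructose transporter of the plasma membrane. It had 5.29 CPM in KO_1922, 3.13 in KO_1925, 0.0775 in KO_2768 and 0.0690 in KO_4258, and 0 in both control lines. The level was therefore carried by KO_1922 and KO_1925, and the L/L mean of 2.14 ± 2.55 CPM (SD, n = 4 lines) exceeded the control floor at least 11.7-fold. Rab3b, a small GTPase of regulated secretion, was highest in KO_2768 at 5.58 CPM, with 0.437 in KO_1922, 0.835 in KO_1925, 0.0230 in KO_4258 and 0 in both control lines. Rab3b in KO_4258 and Slc2a5 in KO_2768 and KO_4258 lay below the L/L floor of 0.141 CPM. Whether these lines exceed the controls is therefore uncertain for these genes. Slc30a2, a zinc transporter of secretory vesicles that supplies zinc to milk, had 2.79 CPM in KO_1922, 12.4 in KO_1925, 0.388 in KO_2768 and 0.483 in KO_4258. In the control lines it had 0 and 0.12 CPM. The L/L means of Rab3b and Slc30a2 exceeded the control floor at least 9.40-fold and 22-fold. A different L/L line was thus the highest for each of these transport genes.

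Orm1, Orm3 and Orm2 encode forms of alpha-1-acid glycoprotein, a secreted acute-phase protein, and lie one after the other on the plus strand. Orm1 (chr4:63344560-63348163) had 16.1 CPM in KO_1922, 33.1 in KO_1925, 10.8 in KO_2768 and 67.9 in KO_4258, and 0.126 and 0.375 CPM in WT_5257 and WT_8905. Orm3 (chr4:63356162-63359511) had 0.364, 0.783, 0.310 and 5.70 CPM in the same L/L lines and 0 in both control lines. Orm2, named after its values were seen, had 0.947, 2.06, 0.969 and 9.77 CPM in the L/L lines and 0.126 and 0.219 CPM in the control lines. All 3 were highest in KO_4258 and had no overlap between genotypes. Within the L/L genotype KO_4258 exceeded the mean of the other 3 lines by 1.92, 3.66 and 2.98 on the log2 scale for Orm1, Orm3 and Orm2 (adjusted p = 2.69e-29, 1.64e-16 and 2.8e-19, edgeR's quasi-likelihood test). The genes are close copies, and reads shared between them may have been split, so the separate values are uncertain. In the Orm3 and Orm2 promoters printed above, TATAAA begins 29 and 33 bases before the start.

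Among members below both controls in all L/L lines and with a mean of at least 1 CPM, the 5 lowest were Rbp7, Car6, Tmem82, Slc25a34 and Tspan1. Rbp7 (chr4:149449687-149454978, minus strand), a cellular retinol-binding protein, had 4.80 CPM in WT_5257 and 6.18 in WT_8905, against 0.0971, 0, 0.0775 and 0 in the L/L lines. Its control mean of 5.49 ± 0.979 CPM (SD, n = 2 lines) exceeded the L/L floor at least 38.8-fold. Car6, the secreted carbonic anhydrase, had 8.08 and 42.0 CPM in the control lines and 0.558, 0.235, 0.736 and 0.0690 in KO_1922, KO_1925, KO_2768 and KO_4258. The fitted log2 fold change of Car6 was -5.97. Tspan1, a tetraspanin of epithelial membranes, had 710 CPM in WT_5257 and 159 in WT_8905, and 25.4, 30.5, 1.71 and 17.4 CPM in the L/L lines. Its log2 fold change was -4.53, and the difference of KO_2768 from the mean of the other L/L lines was -3.8 (adjusted p = 1.37e-28, edgeR).

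Tmem82 (chr4:141613376-141618633) and the mitochondrial carrier gene Slc25a34 (chr4:141618824-141623821) lie 191 bases apart on the minus strand. Slc25a34 had 8.18 CPM in WT_5257 and 52.3 in WT_8905, and 1.36, 0.60, 1.55 and 0 CPM in the L/L lines. Tmem82 had 1.14 and 12.6 CPM in the control lines and 0.219, 0.313, 0.0388 and 0.0690 CPM in the L/L lines. Both were highest in WT_8905, and the difference of WT_5257 from WT_8905 was -2.73 and -3.52 on the log2 scale (adjusted p = 4.78e-24 and 1.26e-15, edgeR). The genotype values were -5.10 for Slc25a34 and -5.38 for Tmem82, and -3.21 and -2.78 without WT_8905. Tmem82 overlaps an annotated gene on the opposite strand. The next member, Plekhm2, 1913 bases from Slc25a34, lay at 0.21 and was named after its value was seen.

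**Figure D4:**
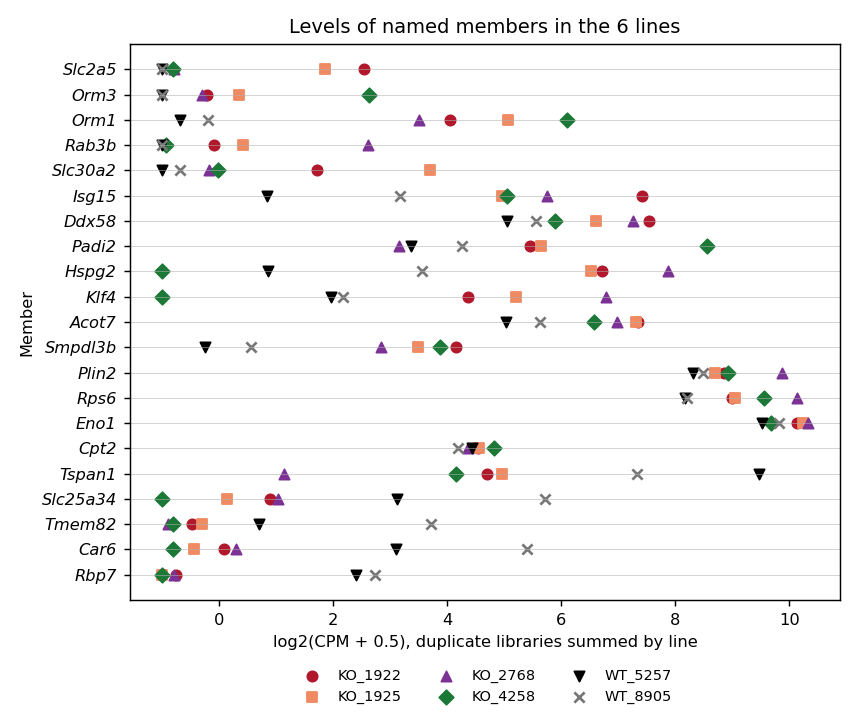
Log2(CPM + 0.5) of 21 named members in each of the 6 lines, duplicate libraries summed, with 1 symbol per line. From Tspan1 to Rbp7 both control lines lie above the 4 L/L lines, and Slc2a5 and Rab3b have L/L lines close to the controls at 0 CPM; for Hspg2 and Klf4 KO_4258 lies at 0 CPM, below the controls.

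Cpt2 (chr4:107903981-107923610, minus strand), the second carnitine palmitoyltransferase of the import path, differed little between the genotypes. It had 22.9, 23.1, 20.2 and 27.8 CPM in KO_1922, KO_1925, KO_2768 and KO_4258 and 21.1 and 17.7 CPM in the control lines. The lines overlapped and the log2 fold change was 0.28, and 0.16 without WT_8905. The counts and medians of the lists that follow stand beside 58.6% of genes above 0 and a median of 0.49 over all listed genes, and no list was tested. Over all listed genes, 35.3% had every L/L line above both controls and 40.6% were called in at least 1 of the tests between L/L lines described below. The lists hold only members, and 85.9% of the fitted members were above 0, with a median of 0.66. In 194 of 326 members every L/L line was above both controls, and 33.1% of the members tested were called. The list of lipid and fatty acid metabolism, of which 13 members are listed, had 10 above 0 and 3 below, with a median of 0.66. Acot7, a cytosolic acyl-CoA thioesterase, had 162, 158, 125 and 95 CPM in the L/L lines and 32.1 and 48.7 CPM in the control lines. The genotypes did not overlap and the log2 fold change of Acot7 was 1.74. Plin2, a coat protein of lipid droplets, had 460, 415, 930 and 482 CPM against 315 and 360 in the control lines, and KO_2768 exceeded the other L/L lines by 1.04 on the log2 scale (adjusted p = 4.13e-25, edgeR). Over the 12 fitted members between 80 and 90 Mb, Plin2 among them, the median of this difference was 1.01. Smpdl3b, a membrane phosphodiesterase of lipids, had the largest log2 fold change of the list at 4.21. It had 17.4, 10.8, 6.70 and 14.1 CPM in the L/L lines and 0.347 and 0.968 CPM in the control lines. The 3 members below 0, named after their values were seen, were the AMPK subunit gene Prkaa2, with 6.88 ± 1.37 CPM in L/L (SD, n = 4) against 38.1 ± 0.407 in control lines (SD, n = 2), Echdc2, with 19.2 ± 2.78 against 36.9 ± 6.06 CPM, and the lysolipid transporter gene Mfsd2a at -1.26 on the log2 scale.

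All 18 listed members of the ribosome and translation list were above 0. In 14 of them every L/L line was above both controls, against 194 of all 326 members and 35.3% of all listed genes. The median of the 18 was 0.66, with a range from 0.28 to 1.32. Rps6, a protein of the small ribosomal subunit, had 508, 530, 1115 and 749 CPM in the L/L lines and 288 and 294 CPM in the control lines. Rps20, the first member by start position and not part of the list, had 412, 421, 717 and 540 CPM against 319 and 193, and Noc2l, a nucleolar protein of ribosome assembly, had 66.6, 67.8, 55.8 and 44.8 CPM against 38.0 and 37.5. Each of these genes was above both control lines in all 4 L/L lines, with fitted log2 fold changes of 1.32 for Rps6, 1.03 for Rps20 and 0.64 for Noc2l. Ribosomal protein genes have many processed copies in the genome, so their counts depend on how the alignment treated shared reads.

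Of 15 listed members of the RNA processing and chromatin list, 14 were above 0, with a median of 0.48 and no member called between L/L lines, against 40.6% of all listed genes. Khdrbs1, an RNA-binding protein, had 191, 207, 160 and 158 CPM in the L/L lines and 122 and 135 CPM in the control lines. Rbbp4, a histone chaperone of several chromatin complexes, had 221, 222, 189 and 149 CPM against 134 and 128. Ssu72, a phosphatase of the RNA polymerase II tail, was the furthest from 0 in the list at 0.72, with 41.0, 40.2, 49.7 and 41.5 CPM against 28.6 and 23.8. These 3 genes had narrow ranges in both genotypes and no overlap between them. The member below 0 was Hmgn2 at -0.69.

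The cell cycle and DNA repair list had all 11 listed members above 0, with a median of 0.68. In 5 of the 11 every L/L line was above both controls, against 194 of all 326 members and 35.3% of all listed genes. Nudc, a dynein-associated protein of nuclear movement, had 157, 159, 93.0 and 111 CPM in the L/L lines and 106 and 85.6 CPM in the control lines, so that KO_2768 lay between the controls. Cdc20, an activator of the anaphase-promoting complex, had 95.9, 94.8, 71.9 and 75 CPM against 76.0 and 49.1, again with overlap. Plk3, a stress-responsive polo-like kinase, had 30.1, 21, 17.1 and 90.1 CPM against 6.50 and 15.4, and KO_4258 exceeded the other L/L lines by 2.02 on the log2 scale (adjusted p = 3.07e-30, edgeR).

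All 10 listed tumor suppressor and proto-oncogene members were above 0, with a median of 2.08, and 7 of them were called in at least 1 contrast between L/L lines, against 40.6% of all listed genes. Id3, an inhibitor of basic helix-loop-helix factors, had 44.7, 56.0 and 64.6 CPM in KO_1922, KO_1925 and KO_2768 but 4.19 in KO_4258, between the 0.694 and 6.43 CPM of the control lines. Klf4, a zinc finger transcription factor of epithelial differentiation, had 20.2, 36.4 and 110 CPM in the same 3 lines, 0 in KO_4258, and 3.41 and 4.03 in the control lines. Ephb2, an ephrin receptor, had 10.7, 11.5, 42.3 and 0.322 CPM in the L/L lines and 0.442 and 0.0312 CPM in the control lines. Thus the high values of all 3 genes lay in 3 L/L lines and not in KO_4258. Kif1b, a kinesin that moves mitochondria and vesicles, differed least in the list at 0.21, with 127, 144, 139 and 139 CPM against 123 and 113, and was at 0.14 without KO_2768.

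The immune and interferon list had 6 listed members, all above 0, with a median of 2.72, and all 6 were called in at least 1 contrast between L/L lines, against 40.6% of all listed genes. Isg15, an interferon-induced ubiquitin-like protein, had 169 CPM in KO_1922, 30.7 in KO_1925, 53.4 in KO_2768 and 32.8 in KO_4258, against 1.29 in WT_5257 and 8.56 in WT_8905. Ddx58, the sensor of viral RNA known as RIG-I, had 185, 97.2, 153 and 58.8 CPM in the L/L lines and 32.8 and 46.6 CPM in the control lines. Both were above the controls in every L/L line, with log2 fold changes of 3.86 and 1.64. Without WT_8905 the value of Isg15 was 5.79, and without KO_1922 it was 2.90. KO_1922 exceeded the other L/L lines by 2.18 on the log2 scale for Isg15 (adjusted p = 2.51e-35, edgeR), and for Ddx58 the difference of KO_4258 from the others was -1.25 (adjusted p = 7.29e-28). Il22ra1, a subunit of the interleukin-22 receptor, had 1.94, 2.74, 0.271 and 0.0460 CPM and 0 in both control lines, and its L/L mean exceeded the control floor at least 6.84-fold.

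The Padi genes encode enzymes that turn arginine in proteins into citrulline, and lie side by side near 141 Mb. KO_2768 has 1 library, so tests of this line assume that it varies as the duplicates of the other lines do. Padi2 had 43.2, 49.3, 8.37 and 375 CPM in KO_1922, KO_1925, KO_2768 and KO_4258 and 9.82 and 18.7 CPM in the control lines. Padi3 had 6.75, 34.8, 0.155 and 10.2 CPM against 0.0316 and 0.343. KO_2768 lay below both controls in Padi2 and between them in Padi3, and the other 3 L/L lines lay above them. Padi1 and Padi4, named after their values were seen, had 1.55 and 24.5 CPM in KO_2768, against 24.4 to 82.0 and 91.4 to 142 in the other L/L lines. The difference of KO_2768 from the mean of the other L/L lines was -3.48 for Padi2, -6.38 for Padi3, -4.76 for Padi1 and -2.28 for Padi4 on the log2 scale (adjusted p = 5.18e-34, 3.15e-22, 1.45e-30 and 2.26e-30, edgeR). Padi1 and Padi2 overlap annotated genes on the opposite strand.

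Of the 17 listed members of the matrix, adhesion and epithelium list, 15 were above 0 and 10 were called between L/L lines, against 40.6% of all listed genes. Cap1 and Capzb, which regulate the growth of actin filaments, had 357 ± 58.7 and 185 ± 26.2 CPM in L/L lines (SD, n = 4) and 226 ± 1.27 and 110 ± 4.05 in control lines (SD, n = 2), without overlap. Gjb5, a connexin of gap junctions, had 0.316, 0.235 and 2.17 CPM in KO_1922, KO_1925 and KO_2768, and 0 in KO_4258 and both control lines. Its L/L mean exceeded the control floor at least 3.72-fold. Hspg2, the basement membrane proteoglycan perlecan, had 104, 91.6 and 234 CPM in KO_1922, KO_1925 and KO_2768, 0 in KO_4258, and 1.33 and 11.3 CPM in the control lines. Its fitted log2 fold change of 4.08 therefore came from 3 of the 4 L/L lines, and was 6.34 without WT_8905. Pappa, a secreted protease of insulin-like growth factor binding proteins, had 7.26, 8.19, 5.12 and 0 CPM in the L/L lines and 0 and 0.406 CPM in the control lines. Megf6, a secreted protein with EGF-like repeats, had 208 and 81.1 CPM in the control lines and 9.30, 3.97, 6.36 and 52.9 CPM in the L/L lines.

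Among receptors, ligands and signaling genes, 15 of 20 fitted members were above 0 and 5 below. Gnb1, a G protein beta subunit, had 522, 488, 725 and 339 CPM in the L/L lines and 276 and 294 CPM in the control lines. Cdc42, a small GTPase of cell polarity, had 316, 306, 296 and 227 CPM against 216 and 211. Cnr1, the cannabinoid receptor, had 56.7, 11.1, 3.33 and 258 CPM in the L/L lines and 1.36 and 4.71 CPM in the control lines, so that KO_2768 overlapped the controls. Gabbr2, a subunit of the GABA B receptor, lay on the other side, with 5.87 and 1.19 CPM in the control lines and 0.461, 0.0522, 0.116 and 0.667 CPM in the L/L lines. Tnfrsf9, a costimulatory receptor of the TNF family, had 5.29, 3.63, 1.63 and 9.68 CPM in the L/L lines and 0 and 0.406 CPM in the control lines.

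The redox and central carbon list had 7 of 9 members above 0, and the mitochondrial list 8 of 10, with medians near 0.50 in both. Eno1, the glycolytic enolase, had 1127, 1202, 1284 and 816 CPM in the L/L lines and 732 and 900 CPM in the control lines. Akr1a1, an aldehyde reductase that uses NADPH, had 436, 457, 487 and 358 CPM against 335 and 359. In both genes KO_4258 lay between the controls and the other 3 L/L lines lay above them. Park7, the redox-sensitive protein DJ-1, had 97.7, 107, 85.5 and 91.2 CPM against 73.0 and 64.6, without overlap. Uqcrh, a subunit of respiratory complex III, had 67.3, 71.6, 93.1 and 99.5 CPM against 69.8 and 58.5, with overlap. Ndufs5, a complex I subunit named after its values were seen, had 25.5, 31.2 and 28.9 CPM in KO_1922, KO_1925 and KO_2768 and only 2.51 in KO_4258, between the 2.78 and 2.06 CPM of the control lines. For Ndufs5 the difference of KO_4258 from the other L/L lines was -3.49 on the log2 scale (adjusted p = 4.93e-28, edgeR).

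Differences between lines of one genotype are not the contrast that chose the members and were tested, although the spread within genotypes entered the study's own test. Each L/L line was compared with the mean of the other 3, and WT_5257 with WT_8905, in edgeR's quasi-likelihood test on the 11 libraries. A gene was called at an adjusted p-value under 0.05 and at least a 2-fold difference. The p-values cover only the spread between duplicate libraries of a line. KO_2768 has no duplicate, and its calls rest on the spread of the other lines. In all contrasts the genes tested are those that differed between genotypes. Of 323 members tested, 107 (33.1%) were called in at least 1 L/L line, against 40.6% of all 4377 listed genes tested. In KO_1922, 36 members were called higher and 6 lower, against 12.8% and 2.97% of all listed genes. In KO_1925, 34 were higher and 9 lower, against 11.9% and 6.01%. In KO_2768, 47 were higher and 27 lower, against 17.1% and 9.57%. In KO_4258, 21 were higher and 51 lower, against 10.7% and 19%. KO_4258 was the only L/L line with more members called lower than higher, and its share of all listed genes leaned the same way. The L/L contrasts share their lines, so these counts are not independent. A gene low in KO_4258 alone is lower there and also raises the difference of each other L/L line. WT_5257 had 24 members higher and 33 lower than WT_8905, against 5.48% and 17.1% of all listed genes. In shares of the members tested, 7.43% were higher and 10.2% lower in WT_5257.

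**Figure D5:**
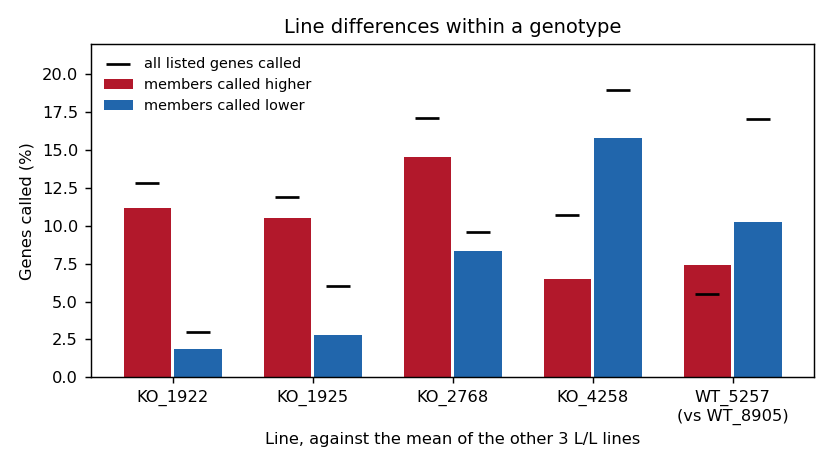
Percent of the 323 members tested that were called higher (red) or lower (blue) in each L/L line against the mean of the other 3 L/L lines, and in WT_5257 against WT_8905. Black marks give the percent of all 4377 listed genes tested; the member bars lie below the marks except for genes higher in WT_5257.

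The median difference of the members in KO_4258 from the other L/L lines was -0.20 on the log2 scale, against -0.05 over all listed genes, and was the third lowest of the 20 chromosomes. In the other L/L lines it was between 0.05 and 0.07. In KO_1922 and KO_1925, Nphp4, a protein of the ciliary transition zone, had 4.98 and 5.95 CPM and was among the highest called members of both lines, against 0.0775 in KO_2768 and 0 in KO_4258, and in the control lines 0.0947 and 0 CPM. Rnf207, a RING finger protein, was lowest in KO_1922 at 0.631 CPM, with 0.861 in KO_1925, 9.18 in KO_2768 and 3.36 in KO_4258 (difference of KO_1922 from the others -2.21, adjusted p = 7.27e-07, edgeR). Megf6 was among the lowest called in KO_1925, at -1.89 on the log2 scale (adjusted p = 8.44e-19, edgeR). Gabbr2 was also called there, but its L/L levels lay near the floor and it passed the minimum level through the control lines. Nphp4 and Rnf207 overlap annotated genes on the opposite strand.

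In KO_2768 the highest called differences were those of Klf4 and Hspg2. The mean of the other L/L lines includes KO_4258, which had no read of either gene. Hspg2 was also among the highest called in KO_1922 and KO_1925. Padi3 was among the lowest called in KO_2768. Zswim5, a zinc finger gene, was also called lower, but had 0 CPM in KO_2768 and 0.0690 to 0.705 CPM in the other L/L lines, and passed the minimum level through the control lines. Between 10 and 30 Mb, 5 of the 6 members were called higher in KO_2768, and between 80 and 90 Mb 6 of 12 were, against 17.1% of all listed genes. These stretches were picked after their values were seen. The latter stretch holds Plin2 and Rps6. Its median difference of KO_2768 from the other L/L lines was 1.01 on the log2 scale, against 0.05 over all members. In KO_4258 the highest called were Cnr1 and Padi2, at 4.33 and 3.85 on the log2 scale (adjusted p = 2.08e-47 and 1.87e-48, edgeR), and the lowest were Hspg2 and Klf4, which had no read in that line. Dcn, a fibroblast marker, was at 0 in KO_4258 and at 1368 CPM in KO_2768. The other listed fibroblast markers, Pdgfrb, Col1a2 and Thy1, had 13.4, 5.70 and 6.16 CPM in KO_2768 and 0 in KO_4258. A link between these markers and the calls was not tested.

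Between the control lines, Pdzk1ip1, a small membrane protein of epithelia, had 34.2 CPM in WT_5257 and 1.5 in WT_8905, and 3.38, 2.43, 7.21 and 0.276 CPM in the L/L lines. The difference between the control lines was 4.45 on the log2 scale (adjusted p = 7.18e-27, edgeR). Its genotype value of -2.42 turned to 1.04 without WT_5257 and was -3.36 without WT_8905. Ephb2, Pappa and Tnfrsf9 were also called between the control lines, but at levels under 0.5 CPM in both, and they passed the minimum level through the L/L lines.

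Promoters in RefSeq were matched for 257 of the 326 members, 197 of them with a start within 100 bases of the deposited start of the gene. In the 300 bases from 250 before to 50 after the start, the median share of G and C was 62.0% in the members, against 58.0% in all 1067 coding promoters of chromosome 4 and 56.3% in all 17492 coding promoters. The median number of CpG was 22, against 15 and 13. Among members, the motif TGACNNNGC, the core of the antioxidant response element bound by Nrf2, was found on either strand in 16.0%, against 14.6% of the coding promoters of chromosome 4 and 13.1% of all coding promoters. The E-box CACGTG was in 8.56%, against 7.87% and 7.91%. The CCAAT box was in 37.7%, against 38.1% and 39.2%, and the TATA box letters TATAAA were in 6.61%, against 10.7% and 13.3%. The members above 0 and below 0 held TGACNNNGC in 35 of 217 and 5 of 36. Both backgrounds hold promoters of coding genes at any level of expression, listed or not. No promoters of listed genes from other chromosomes were set beside them, so the differences are not shown to be particular to the members. These shares are descriptions of sequence and say nothing of binding.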

How the data were processed

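RNA-Seq libraries of tumor-derived lines were made with the NEBNext Ultra II kit. The submitters' processing notes also name Trimmomatic, edgeR and limma. The authors aligned reads to mm10 with STAR, counted them with HTSeq and deposited the read counts per gene without normalization. In the same table the authors gave a normalized signal, made with a size factor for each library, and FPKM values, scaled by gene length and library total. The deposited table holds only genes with an adjusted p-value under 0.05 in the study's genotype comparison. Its columns of log2 fold change, p-value and adjusted p-value hold that comparison and were not used. The strand setting of the counting is not given in the sources used here. The sample titles call the duplicates of a line biological replicates 1 and 2, without saying what was separate.

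Library totals were recovered from counts, gene lengths and FPKM, since the listed genes hold part of each library. Genotype fold changes were fitted to line sums (edgeR 4.0.16 in R 4.3.3, TMM factors from 0.969 to 1.05, 4268 genes kept by filterByExpr). A fold change is not a bound where a group lies at 0. Line differences were tested with glmQLFTest on 11 libraries, with Benjamini-Hochberg adjustment across 4377 genes. The test was also run on simulated counts with changes of 1.5 and 2.5 on the log2 scale in KO_4258, and the outcome is not reported here. Alternatives covered scaling, filter, tool (DESeq2 1.42.0), left-out lines and libraries, and bins. Plots used matplotlib 3.10.9 in Python 3.11.15.

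Members and gene lists were chosen with earlier results of these data known. Named genes were, first, the 5 highest and 5 lowest members by log2 fold change without overlap between genotypes and with a mean of at least 1 CPM, and second, the 2 highest and 2 lowest called members of each line contrast at that level. Further ones were, in each list, the 2 with the highest mean FPKM and the 1 furthest from 0, and also Cpt2 and the first and last member. Any other member was named after its values were seen. Values of some members are not reported here.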

Additional observations from a re-analysis of the deposited data

Results flagged for a closer look

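In groups of 4 lines, a value was flagged where its gap to the nearest other line, divided by the whole range, exceeded Dixon's 95% critical value, a limit that chance passes in about 1 of 20 groups (5%). The 52 named members and the median over all fitted members were examined in the 4 L/L lines. The median over members of log2(CPM + 0.5) minus the control mean was 0.40 in KO_4258, against 0.61, 0.63 and 0.61 in KO_1922, KO_1925 and KO_2768. KO_4258 was also set apart by Hspg2 at 0 CPM, by Pappa at 0 CPM and by Id3 at 4.19 CPM, and the first of these was named for its difference between lines. KO_2768 was set apart by Ssu72, at 49.7 CPM against 40.2 to 41.5 in the other L/L lines. No cause of these values was tested.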

How the results depend on the processing

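The median log2 fold change of members, 0.66, was 0.53 with DESeq2's size factors and from 0.55 to 0.70 with a line left out, 0.55 being the value without KO_2768. The number of members with all L/L lines above both controls, 194, was 129 with DESeq2's size factors and 169 to 246 with a line left out. With no fold minimum, the members called higher and lower were 125 and 51 in KO_1922, 104 and 76 in KO_1925, 122 and 96 in KO_2768, 89 and 152 in KO_4258, and 79 and 99 in WT_5257 against WT_8905. With a library left out, the members called lower in KO_1922 were 3 to 6, 3 being the count without the library KO_1922B. Every other count stayed within 1.5 times its value. The genotype value of Pdzk1ip1 reversed from -2.42 to 1.04 without WT_5257, and was -3.36 without WT_8905. Of the values of single named genes and of the median over all listed genes, 586 moved by less than the spread between L/L lines and 40 by more. The causes were not tested. Settings in which a gene failed the filter on low counts gave no value and are not counted. This held for Slc2a5, Il22ra1 and Nphp4 without KO_1922 and without KO_1925. It also held for Gjb5 without KO_1922, without KO_2768 and with 1 library per line. Library labels A and B did not pair the samples: differences of A minus B correlated between lines from -0.144 to 0.059 over 10 pairs of lines. With this label as a replicate block, 35 and 6 members were called higher and lower in KO_1922, 34 and 9 in KO_1925, 46 and 27 in KO_2768, 21 and 51 in KO_4258, and 23 and 33 in WT_5257. The share of members above 0 in the lowest 10-Mb bin, 64.7%, was 78.6% with bins of 5 Mb and 53.8% with bins of 20 Mb. Depth limits members near the floor of 3 counts, where 29 members had no control library above it.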
